A study of Homo sapiens with 4 samples.

Results

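The genes described here are 10 genes of suprabasal keratinocyte differentiation and the cornified envelope, KRT1, KRT10, IVL, TGM1, FLG, SPRR1A, SPRR1B, CDSN, KLK5 and KLK7. They were taken by gene symbol from the 58735 genes of the deposited tables, and each symbol matched 1 gene. Poly-A RNA was sequenced from HaCaT, an established human keratinocyte line, kept in DMEM with fetal bovine serum. The siControl group was transfected with normal control siRNA and the siALKBH5 group with siRNA against ALKBH5, an eraser of the m6A mark on RNA, each with 200 pmol siRNA in six-well plates using lipofectamine 3000. Each group had 2 libraries, and the comparison asks how the transcriptome of these cells differs when ALKBH5 is knocked down. The labels do not give the time of harvest, which of the ALKBH5 siRNAs was used or whether the libraries of a group came from separate cultures, so p-values measure only the spread between these libraries, which may be technical.

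In the epidermis, keratinocytes leave the basal layer, exchange the basal keratins KRT5 and KRT14 for the suprabasal pair KRT1 and KRT10, and finally die as flattened corneocytes. Under the plasma membrane they build a cornified envelope, in which transglutaminases cross-link involucrin (IVL), small proline-rich proteins and other precursors, while filaggrin (FLG) packs the keratin filaments. Corneodesmosomes hold the corneocytes together until serine proteases such as KLK5 and KLK7 cut them, which lets the cells shed. HaCaT cells are immortalised, and they are known to keep part of this programme in culture.

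Library totals lay between 16017502 and 18837807 counts, and mitochondrial genes took 10.2% of the counts in each control library against 9.63% and 9.64% after knockdown. The TMM scaling factors were 1.007 and 1.008 in siControl and 0.993 and 0.992 in siALKBH5. Both quantities separated the groups. Scaled by library size alone, without TMM factors, 3 of the 10 genes were called higher and 4 lower, as with them. Among all tested genes that scaling gave 2616 higher and 2894 lower. The part of the mitochondrial share in the results was not tested. Enough counts for the test were found in 15075 genes, and their median log2 fold change was -0.01. ALKBH5 had 1512 and 1576 counts in the control libraries against 956 and 816 after knockdown, which is 90.7 ± 4.42 against 50.4 ± 1.13 CPM (SD, n = 2), where CPM are counts scaled to a common library size with TMM factors. Its log2 fold change was -0.85 (SE 0.05, adjusted p = 6.45e-15 by edgeR's quasi-likelihood test with Benjamini-Hochberg adjustment), so the knockdown was partial, at 55.5% of the control level. All 12 markers of keratinocyte and basal identity were tested, and KRT5 and KRT14 were at 7034 ± 182 and 5621 ± 73.4 CPM (SD, n = 2) in siControl. Of 12 markers of other cell types, 5 were tested and VWF alone was called, at a log2 fold change of 0.51. PDGFRA, COL1A2 and TYRP1 were at 0 counts in all libraries, whereas other markers of fibroblasts and melanocytes were detected, COL1A1 at 267 to 310 counts, PMEL at 38 to 61 and MLANA at 3 to 13. The summed level of the 12 markers was 41.2 to 41.3 CPM in siControl and 48.2 to 48.8 CPM in siALKBH5, and its part in the results was not tested. In bulk RNA, fewer differentiated cells and less RNA per differentiated cell cannot be told apart.

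FLG, IVL, SPRR1A and SPRR1B lie in the epidermal differentiation complex of chromosome 1, a cluster of envelope genes. The promoter sequences of RefSeq on GRCh38.p14, 250 bases before to 50 after each start site, held 8 of the 10 genes, all but KRT1 and TGM1. They are shown because these 4 genes share a motif, although SPRR1A was not called after knockdown and the other 3 fell. In the 150 bases before each start site, printed 5′ to 3′ on the gene's own strand, capitals mark matches to the AP-1 motif TGANTCA and to the TATA box motif TATAAA, each searched on both strands.
FLG, chr1:152325240-152325389, minus strand: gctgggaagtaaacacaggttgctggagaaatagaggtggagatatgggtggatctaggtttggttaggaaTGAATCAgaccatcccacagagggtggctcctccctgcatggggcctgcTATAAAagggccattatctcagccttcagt
IVL, chr1:152908396-152908545, plus strand: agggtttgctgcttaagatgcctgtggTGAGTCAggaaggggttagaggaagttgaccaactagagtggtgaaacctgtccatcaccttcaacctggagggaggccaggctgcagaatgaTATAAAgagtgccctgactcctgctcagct
SPRR1A, chr1:152983931-152984080, plus strand: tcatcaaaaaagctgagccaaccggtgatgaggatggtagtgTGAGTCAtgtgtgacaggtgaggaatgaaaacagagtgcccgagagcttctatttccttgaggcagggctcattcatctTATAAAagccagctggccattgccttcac
SPRR1B, chr1:153031053-153031202, plus strand: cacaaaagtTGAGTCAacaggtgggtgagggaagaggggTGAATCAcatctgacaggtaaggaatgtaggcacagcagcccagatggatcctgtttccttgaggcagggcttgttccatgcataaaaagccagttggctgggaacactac

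AP-1 is a dimer of Jun and Fos family proteins that is known to act at promoters of late differentiation genes. TGANTCA was present in the promoters of these 4 genes and in none of KRT10, which also fell, CDSN, KLK5 and KLK7, against 7.71% of all 35116 promoters in the table. For each motif, a gene was counted if any of its promoters matched, but the background counts single promoters, so these shares differ in unit. The match began 79 bases upstream of the start site in FLG, 123 in IVL and 108 in SPRR1A, and SPRR1B had a match at 141 and another at 111 bases upstream. The TATA box was found in KRT10, IVL, FLG and SPRR1A, 29 or 30 bases upstream of the start, against 11.5% of all promoters. SPRR1B lacked TATAAA in this window. The motif AACCNGTT of grainyhead factors, which are regulators of the epidermal barrier, was found in 0 of the 8 promoters and in 1.73% of all promoters. A match is a description of letters and shows no binding, and a link between the motif and the changes was not tested.

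SPRR1A and SPRR1B encode near-identical small proline-rich proteins, and their coding sequences are shown because the comparison of the pair rests on telling their reads apart. In the GENCODE 29 transcripts both are 270 bases long from start to stop codon, with 260 identical and 10 different bases (96.3% identity) and no gap. Capitals mark the 10 differences.
SPRR1A coding sequence: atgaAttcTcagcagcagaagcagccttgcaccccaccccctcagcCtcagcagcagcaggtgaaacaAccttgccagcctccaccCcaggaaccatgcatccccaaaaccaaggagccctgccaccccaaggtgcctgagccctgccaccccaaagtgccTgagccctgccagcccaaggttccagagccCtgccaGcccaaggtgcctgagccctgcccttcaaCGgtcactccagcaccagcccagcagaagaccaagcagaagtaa
SPRR1B coding sequence: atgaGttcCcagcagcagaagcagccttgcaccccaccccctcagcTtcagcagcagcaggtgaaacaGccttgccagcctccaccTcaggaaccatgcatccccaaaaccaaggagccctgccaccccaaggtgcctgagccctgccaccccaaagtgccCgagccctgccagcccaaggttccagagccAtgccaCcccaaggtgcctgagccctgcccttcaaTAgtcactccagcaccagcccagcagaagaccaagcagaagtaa
The longest identical stretch was 74 bases. Of the 50-base words of the listed SPRR1A transcript, 11.3% also occur in SPRR1B, and 4.38% of those of SPRR1B occur in SPRR1A. A read that falls in such a stretch cannot be assigned to 1 of the pair, so their separate values are uncertain. The SPRR1A gene model used for counting starts 1150 bases downstream of the RefSeq start site and has 270 bases, which is its coding sequence alone, so reads from the rest of its RNA were not counted, whereas SPRR1B was counted over 620 bases.

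The genes differed widely in level. Per length, as FPKM recomputed from the counts, the library totals and the listed gene lengths in kilobases, KRT1 was highest in siControl at 353 ± 0.936 (SD, n = 2), rank 86 of 19951 protein-coding genes. IVL followed at 211 ± 0.241 FPKM, KRT10 at 157 ± 2.76 and KLK5 at 89.9 ± 1.44 (SD, n = 2 each). The mRNAs of the suprabasal keratin pair, of the envelope precursor involucrin and of 1 protease were therefore among the abundant mRNAs of these cells. SPRR1A at 26.8 ± 4.25 FPKM and SPRR1B at 26.1 ± 0.743 (SD, n = 2 each) did not differ beyond their spread, and the SPRR1A value depends on its short listed length. TGM1 was at 19.8 ± 1.57 FPKM, KLK7 at 8.98 ± 0.0403 and FLG at 2.37 ± 0.23 (SD, n = 2 each). FLG has long repeats, and whether reads that fit several places were counted is not given, so its level may be too low. CDSN, at 0.0342 ± 0.0137 FPKM (SD, n = 2), was close to undetected. Apart from the SPRR1 pair, neighbours in this order did not overlap between their siControl libraries. In siALKBH5 the order was the same except that SPRR1B, at 16.0 ± 1.35 FPKM (SD, n = 2), came below TGM1 at 20.8 ± 0.985.

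Of the 10 genes, 9 passed the filter on low counts, and after knockdown 3 were higher, 4 were lower and 2 were not called at an adjusted p under 0.05 by edgeR's quasi-likelihood test. KRT1, KLK5 and KLK7 rose, and KRT10, IVL, FLG and SPRR1B fell, while TGM1 and SPRR1A did not pass. The background was high. Among all tested genes 36.6% were called in either direction, 19.3% higher and 17.3% lower, and among the 9724 genes with a mean level at least that of the least abundant tested member, 8.15 CPM, 47.7% were called. The groups did not overlap in CPM for 8 of the 9 genes, 4 higher and 4 lower in siALKBH5, against 66.3% of all tested genes. With a log2 fold change of 1 or more in size also required, 0 of the 9 genes were called, against 2.92% of all tested genes, and with 440 genes called at that fold the count of 0 is near this background. Their median log2 fold change was 0.10, with a range from -0.68 to 0.63. The number called higher was 4 without siControl replicate 1 and 4 without siControl replicate 2, owing to SPRR1A and TGM1.

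**Figure D1:**
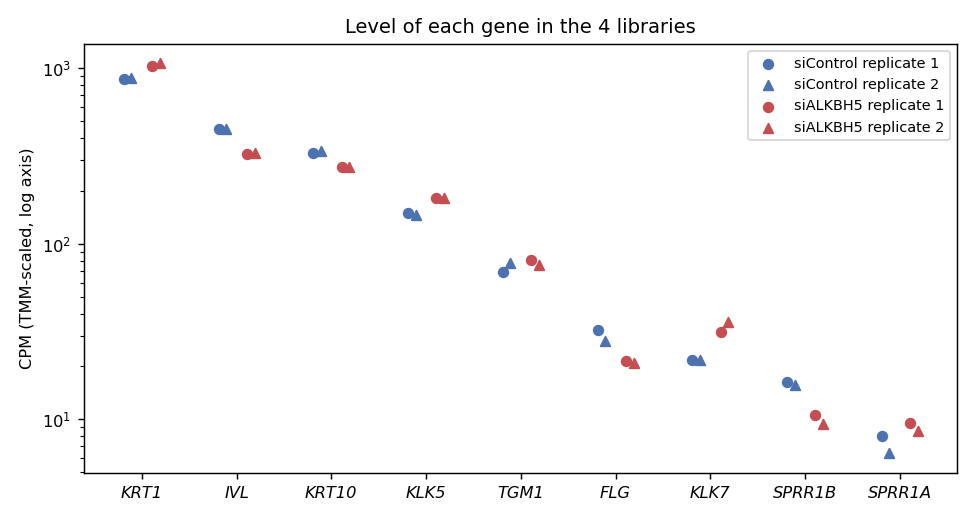
CPM (counts scaled with TMM factors, log axis) of the 9 tested genes in each siControl (blue) and siALKBH5 (red) library, with circles for replicate 1 and triangles for replicate 2. The libraries of a group lie close together, and the groups overlap in TGM1 only, where siControl is at 69.3 and 77.5 CPM and siALKBH5 at 81.1 and 76.0 CPM.

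**Figure D2:**
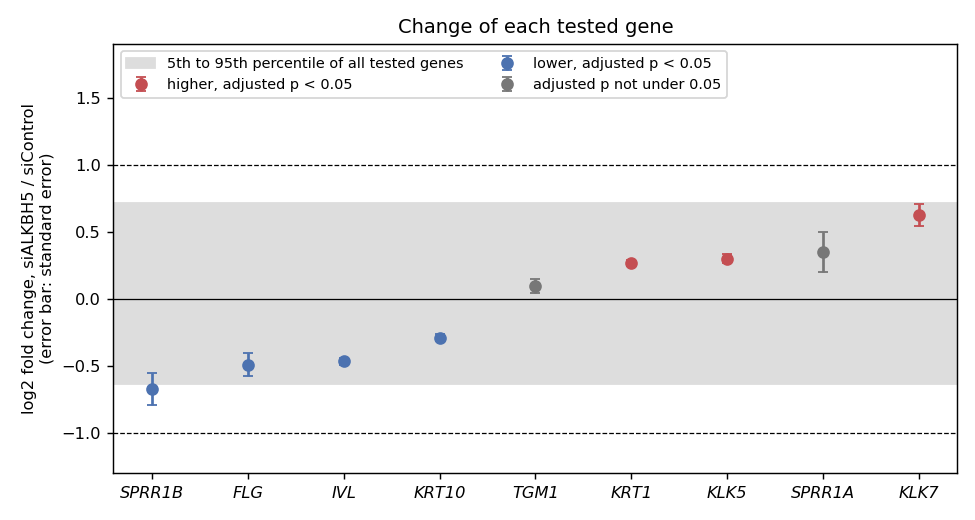
Log2 fold change of siALKBH5 against siControl with its standard error for the 9 tested genes, red where called higher, blue where called lower and grey where not called. The grey band spans the 5th to 95th percentile of all tested genes, -0.63 to 0.71, dashed lines mark a log2 fold change of 1 in either direction, and SPRR1B at -0.68 alone lies outside the band.

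The suprabasal keratin pair moved in opposite directions. KRT1 (ENSG00000167768, GRCh38 chromosome 12 from 52674736 to 52680407, minus strand) is the type II partner. It had 14049 and 15739 counts in the control libraries against 19325 and 17523 after knockdown, that is 872 and 875 CPM against 1035 and 1065 CPM. Both siALKBH5 libraries were above both siControl libraries. The log2 fold change of KRT1 was 0.27 (SE 0.02, adjusted p = 1.18e-12 by edgeR's quasi-likelihood test), or 120% of the control level.

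KRT10 (ENSG00000186395, chromosome 17 from 40818117 to 40822595, minus strand) is the type I partner, which assembles with KRT1 into filaments. It had 5328 and 6096 counts in the control libraries against 5087 and 4524 after knockdown, or 331 and 339 CPM against 272 and 275 CPM, and the groups did not overlap. Its log2 fold change was -0.29 (SE 0.03, adjusted p = 2.57e-10 by edgeR's quasi-likelihood test). The counts of KRT1 per count of KRT10 were 2.64 and 2.58 in siControl and 3.80 and 3.87 in siALKBH5, so the ratio was higher in both knockdown libraries. These ratios are of raw counts, not per length, and are compared between libraries only. KRT10 overlaps TMEM99 on the opposite strand. TMEM99 had a log2 fold change of -0.0032 (SE 0.07), and whether reads were counted by strand is not given in the sources used here.

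Set against keratins among the markers of keratinocyte and basal identity, the suprabasal pair gave ratios that depended on the keratin chosen. KRT1 had 0.122 and 0.127 counts per count of KRT5 in siControl and 0.0925 and 0.0941 in siALKBH5. Per count of KRT5, KRT10 had 0.0462 and 0.0491 in siControl and 0.0244 and 0.0243 in siALKBH5. KRT10 had 0.0583 and 0.0608 counts per count of KRT14 in siControl and 0.0412 and 0.0423 in siALKBH5. Against KRT15, another basal type I keratin, both ratios were instead higher after knockdown. KRT1 had 0.0582 and 0.0578 counts per count of KRT15 in siControl and 0.0959 and 0.0983 in siALKBH5, and KRT10 had 0.0221 and 0.0224 against 0.0252 and 0.0254. Per count of KRT14, KRT1 was at 0.154 and 0.157 in siControl and 0.156 and 0.164 in siALKBH5, where the groups overlapped. KRT5, the basal type II keratin, had a log2 fold change of 0.68, KRT14, its type I partner, of 0.22, and KRT15 of -0.48. In the type II keratin cluster of chromosome 12, 16 of 27 protein-coding genes were tested, 11 were higher and 3 lower, with a median of 0.38. In the type I cluster of chromosome 17, 13 of 63 protein-coding genes were tested, 2 were higher and 6 lower, with a median of -0.14. Without KRT1, 10 of 15 tested type II cluster genes were higher and 3 lower, with a median of 0.50, and without KRT10, 2 of 12 tested type I cluster genes were higher and 5 lower, with a median of -0.11. Over all tested genes the median was -0.01, with 19.3% called higher and 17.3% lower. Of 12525 tested protein-coding genes, 2777 were higher and 2362 lower.

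Among the envelope precursors, involucrin and filaggrin fell. IVL (ENSG00000163207, chromosome 1 from 152908545 to 152911886, plus strand) encodes the glutamine-rich protein that is cross-linked early beneath the membrane. It had 7279 and 8111 counts in the control libraries against 6074 and 5390 after knockdown, or 452 and 451 CPM against 325 and 328 CPM. The libraries within each group were nearly equal and the groups did not overlap. The log2 fold change of IVL was -0.47 (SE 0.03, adjusted p = 2.08e-16 by edgeR's quasi-likelihood test), which is 72.3% of the control level. Of the 50-base words of its transcript, 6.23% recur within the gene and 0 occur in another gene, so the repeats of involucrin share reads with no other gene.

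FLG (ENSG00000143631, chromosome 1 from 152302175 to 152325203, minus strand) encodes profilaggrin, which is cut into the filaggrin units that bundle keratin filaments. Its counts were 518 and 504 in the controls and 403 and 346 after knockdown, or 32.1 and 28 CPM against 21.6 and 21.0 CPM. Both knockdown libraries were below both controls. FLG had a log2 fold change of -0.49 (SE 0.09, adjusted p = 2.22e-05 by edgeR's quasi-likelihood test). Its long repeats make 29.9% of its 50-base words recur within the transcript, and none occur in another gene. FLG-AS1, which is annotated across FLG on the opposite strand, had 179 and 181 counts in the control libraries against 139 and 124 after knockdown, a log2 fold change of -0.50 (adjusted p = 0.00469 by edgeR's quasi-likelihood test). Without the strand of the reads, FLG and FLG-AS1 cannot be told apart in the stretch that they share.

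The paired SPRR1 genes, whose products are cross-bridges of the envelope, gave a call for SPRR1B and none for SPRR1A. SPRR1B (ENSG00000169469, chromosome 1 from 153031202 to 153032900, plus strand) had 264 and 283 counts in the control libraries against 198 and 155 after knockdown, or 16.4 and 15.7 CPM against 10.6 and 9.42 CPM. The groups did not overlap, and its log2 fold change of -0.68 (SE 0.12, adjusted p = 2.49e-05 by edgeR's quasi-likelihood test) was the largest of the 9 in size. SPRR1A (ENSG00000169474, chromosome 1 from 152985231 to 152985500, plus strand) had 129 and 115 counts in the control libraries against 179 and 142 after knockdown, or 8.01 and 6.39 CPM against 9.58 and 8.63 CPM. Both siALKBH5 libraries lay above both siControl libraries, but the log2 fold change of 0.35 (SE 0.15) did not pass the test (adjusted p = 0.0677 by edgeR's quasi-likelihood test). Without siControl replicate 1 it was 0.52 (adjusted p = 0.0208 by edgeR), and without siControl replicate 2 it was 0.19 (adjusted p = 0.482 by edgeR), so the SPRR1A value depends on which control library is kept.

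The counts of SPRR1A per count of SPRR1B were 0.489 and 0.406 in siControl and 0.904 and 0.916 in siALKBH5. Counting differences in length cancel in this ratio between groups, but reads that the pair shares do not. The counts of both genes summed, which an exchange of reads within the pair cannot change, were 393 and 398 in siControl and 377 and 297 in siALKBH5. These are 24.4 and 22.1 CPM against 20.2 and 18.0 CPM, so the sum was lower in both siALKBH5 libraries than in both siControl libraries. By the Euclidean distance of centred log2 CPM over the 4 libraries, the protein-coding genes most like SPRR1B were SWT1 (distance 0.02), PGBD1 (0.03) and GGT6 (0.04). PGBD1 had 26 to 48 counts and was not called. With 4 values per gene such likeness is a description, and shared regulation was not tested.

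TGM1 (ENSG00000092295, chromosome 14 from 24249114 to 24264432, minus strand) encodes transglutaminase 1, the membrane-bound enzyme that cross-links the envelope precursors. It had 1116 and 1394 counts in the control libraries against 1515 and 1250 after knockdown, or 69.3 and 77.5 CPM against 81.1 and 76.0 CPM. The groups overlapped, and the log2 fold change was 0.10 (SE 0.05, adjusted p = 0.157 by edgeR's quasi-likelihood test). Leaving out 1 library at a time, it ranged from 0.02 to 0.18, and it passed only without siControl replicate 2, at 0.18 (adjusted p = 0.0221 by edgeR). The difference of this enzyme's mRNA lay within the spread of the libraries.

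**Figure D3:**
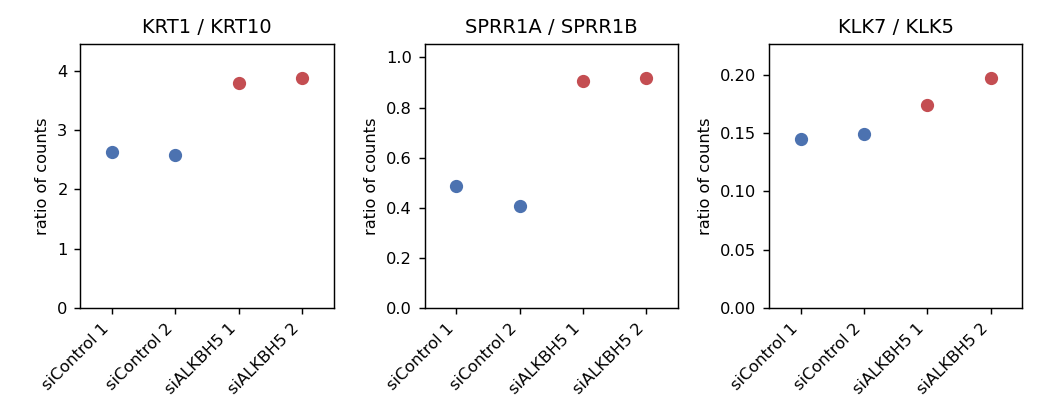
Ratio of raw counts of KRT1 to KRT10, SPRR1A to SPRR1B and KLK7 to KLK5 in each library, with siControl in blue and siALKBH5 in red and each vertical axis starting at 0. In each panel both siALKBH5 libraries lie above both siControl libraries, with the SPRR1A to SPRR1B ratio going from 0.489 and 0.406 to 0.904 and 0.916.

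Both desquamation proteases rose. KLK5 (ENSG00000167754, chromosome 19 from 50943303 to 50953093, minus strand) encodes a trypsin-like kallikrein that can activate other kallikreins. It had 2406 and 2625 counts in the control libraries against 3394 and 2985 after knockdown, or 149 and 146 CPM against 182 and 181 CPM. The groups did not overlap, and the log2 fold change was 0.30 (SE 0.03, adjusted p = 1.81e-08 by edgeR's quasi-likelihood test). KLK7 (ENSG00000169035, chromosome 19 from 50976482 to 50984099, minus strand) encodes the chymotrypsin-like kallikrein of the stratum corneum. It had 349 and 392 counts in the control libraries against 589 and 587 after knockdown, or 21.7 and 21.8 CPM against 31.5 and 35.7 CPM. Both knockdown libraries were above both controls, and its log2 fold change of 0.63 (SE 0.08, adjusted p = 2.24e-07 by edgeR's quasi-likelihood test), or 155% of the control level, was the highest among the 9 genes. The counts of KLK7 per count of KLK5 were 0.145 and 0.149 in siControl and 0.174 and 0.197 in siALKBH5. The antisense genes that overlap KLK5 and KLK7 had at most 4 counts in any library.

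CDSN (ENSG00000204539, chromosome 6 from 31115090 to 31120446, minus strand) encodes corneodesmosin, the adhesive protein of corneodesmosomes that these proteases cut. It had 1 and 2 counts in the control libraries against 4 and 0 after knockdown, too few to be tested, and no difference was detectable at this depth. The count of 0 in 1 library allows up to 3 counts, by counting error alone. PSORS1C1, which overlaps CDSN on the opposite strand, had 77 and 67 counts in the control libraries against 55 and 34 after knockdown, a log2 fold change of -0.74 (adjusted p = 0.0143 by edgeR's quasi-likelihood test). These cells thus had mRNA of both proteases and at most 4 counts of this substrate.

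Within the epidermal differentiation complex, on chromosome 1 from 151982915 to 153632039, 26 of 64 protein-coding genes were tested, 8 were higher and 7 lower, with a median log2 fold change of 0.08. IVL, FLG and SPRR1B were 3 of the 7 lower genes. Without the 4 members, 22 genes were tested, 8 higher and 4 lower, with a median of 0.13. The shares over all tested genes were 19.3% higher and 17.3% lower, and 2777 of 12525 tested protein-coding genes were higher and 2362 lower. The late envelope genes beside them were scarce. LOR, which encodes loricrin, the main protein of the mature envelope, was at 0.554 ± 0.0812 CPM in siControl and 0.896 ± 0.322 CPM (SD, n = 2 each) in siALKBH5 and was not called.

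In the kallikrein cluster, on chromosome 19 from 50819148 to 51084245, 9 of 16 protein-coding genes were tested, 4 were higher and 3 lower. Over all tested genes, 19.3% were higher and 17.3% lower, and of 12525 tested protein-coding genes 2777 were higher and 2362 lower. The higher genes were KLK1 at a log2 fold change of 0.95, KLK5, KLK7 and AC011473.4 at 1.12, a gene that overlaps KLK8 on the same strand and can share its reads. The lower genes were KLK10 at -0.32, KLK11 at -0.60 and KLK13 at -1.07. In the order along the chromosome, the called genes from KLK1 to AC011473.4 were higher and those from KLK10 to KLK13 were lower. This order was noticed after the values were seen. The summed level of the protein-coding cluster genes was 525 to 528 CPM in siControl and 498 to 506 CPM in siALKBH5, so the rise of KLK5 and KLK7 did not extend to the cluster as a sum.

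**Figure D4:**
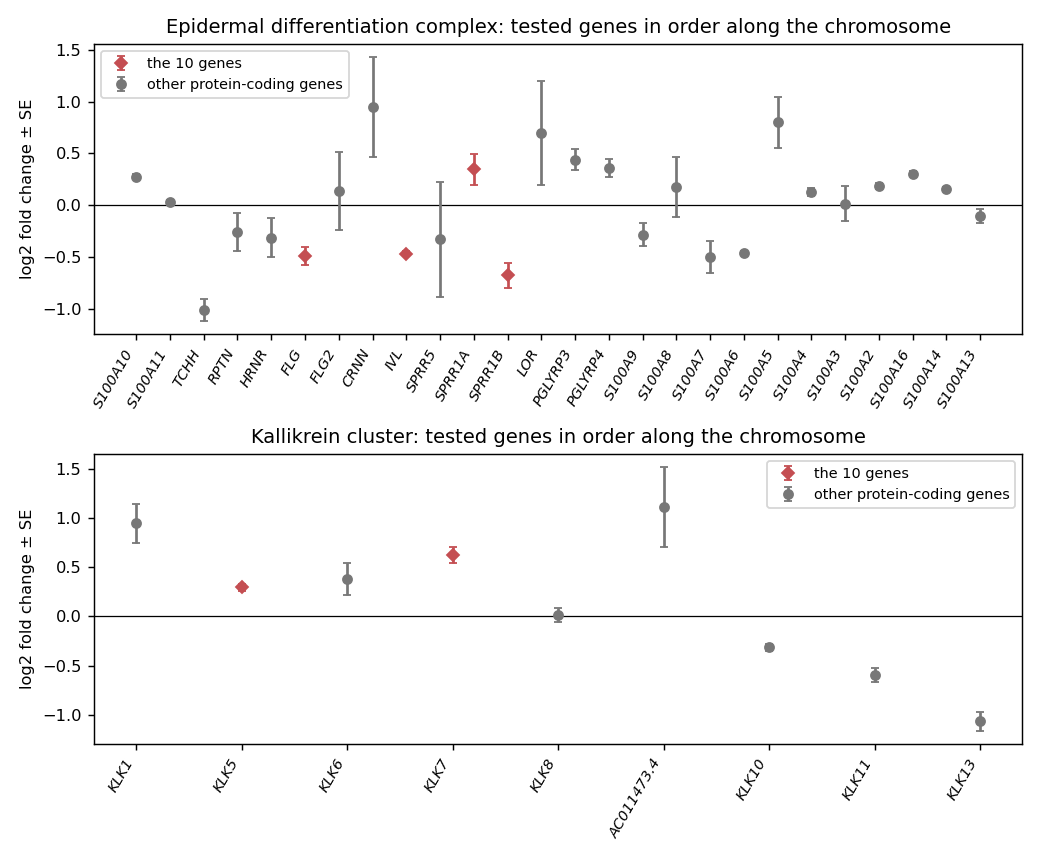
Log2 fold change with its standard error for the tested protein-coding genes of the epidermal differentiation complex (top) and the kallikrein cluster (bottom), in order along the chromosome, with red diamonds for FLG, IVL, SPRR1A, SPRR1B, KLK5 and KLK7 and grey circles for the other genes. FLG, IVL and SPRR1B lie below 0 among neighbours of either sign, and KLK5 and KLK7 lie above 0 with KLK10, KLK11 and KLK13 below 0 at the other end.

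Beyond the 10 genes, 106 further genes were listed by role, of which 58 passed the filter on low counts. They are called cornification genes here, but also include other suprabasal keratins such as KRT4 and KRT13. Of the 58 tested, 16 were higher and 18 lower by edgeR, with a median log2 fold change of 0.03, against 19.3% higher and 17.3% lower among all tested genes. With DESeq2 8 were higher, and without siALKBH5 replicate 1 11 were lower. At 0 counts in all 4 libraries were 21 of the 106 genes, a share similar to the 4093 of 19951 protein-coding genes. Of these 21, 15 were among the 38 late envelope and filament-aggregating genes. Called genes were found in both directions, as among the 10 genes.

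Late envelope and filament-aggregating proteins, the group nearest to FLG, had 7 of 38 genes tested, 0 higher and 2 lower. TCHH, which encodes trichohyalin, fell by 1.01 on the log2 scale, from 26.9 ± 1.81 to 13.4 ± 2.45 CPM (SD, n = 2 each). CNFN, which encodes cornifelin, fell by 1.08, from 6.52 ± 0.362 to 3.09 ± 0.438 CPM (SD, n = 2 each). HRNR and RPTN, relatives of filaggrin, had log2 fold changes of -0.31 (adjusted p = 0.20 by edgeR's quasi-likelihood test) and -0.26 (adjusted p = 0.294) and were not called. FLG2, also a relative, had 0.14 (adjusted p = 0.82 by edgeR's quasi-likelihood test), CRNN, which encodes cornulin, had 0.95 (adjusted p = 0.127) and LOR had 0.70 (adjusted p = 0.295), none of them called.

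Of the scaffold proteins and cross-linked partners of involucrin, 7 of 10 genes were tested, 3 higher and 2 lower. SCEL, which encodes sciellin, had a log2 fold change of -0.54 and CSTA, which encodes cystatin A, of -0.35, in the direction of IVL. PPL, which encodes the plakin periplakin on which the envelope is first laid down, had 0.23, and PI3, which encodes the elastase inhibitor elafin, 1.38 from a low level of 0.641 ± 0.116 CPM (SD, n = 2) in siControl. Besides TGM1, 2 of 3 transglutaminases were tested and 0 called, TGM2 at 1.45 (adjusted p = 0.0762 by edgeR's quasi-likelihood test) and TGM5 at 0.60 (adjusted p = 0.121). TGM1 had the highest CPM of these enzymes in every library.

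Of 8 other suprabasal keratins, 7 were tested, 3 higher and 3 lower. KRT77, a type II keratin next to KRT1, rose by 0.58 on the log2 scale and KRT80, also type II, by 0.22, and the type I keratins KRT13 and KRT23 fell by 0.25 and 0.87. As with KRT1 and KRT10, these type II keratins were higher and these type I keratins lower. However, the type II keratin KRT4 was lower at -0.06, and the type I keratin KRT9 was at 0.20 and not called. Of the type I keratins among the markers of keratinocyte and basal identity, KRT14 and KRT16 were higher, at 0.22 and 0.18. KRT15 and KRT17 were lower, at -0.48 and -0.08. KRT13 was at 10462 ± 168 CPM in siControl and 8812 ± 2.36 CPM (SD, n = 2 each) in siALKBH5.

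For the proteases and inhibitors of desquamation, 14 of 20 genes were tested, 3 higher and 6 lower. CTSV, which encodes cathepsin V, rose by 0.41 on the log2 scale with KLK5 and KLK7, while KLK13 and KLK11 fell. The serpin gene SERPINB3 was lower at -0.36. SPINK5, whose product LEKTI inhibits KLK5 and KLK7, was named for this role after its values were seen. It had 24.7 and 23.5 CPM in siControl and 17.9 and 20.1 CPM in siALKBH5, a log2 fold change of -0.34 (adjusted p = 0.00372 by edgeR's quasi-likelihood test). SPINK5 mRNA was thus lower in the libraries where KLK5 and KLK7 mRNA was higher, while KLK11 and KLK13 mRNA was lower too. DSG1, the corneodesmosomal cadherin that was tested of 2, had 0.23 (adjusted p = 0.558 by edgeR's quasi-likelihood test).

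Of 12 barrier lipid genes, 7 were tested, 3 higher and 1 lower. CERS3, a ceramide synthase gene, rose by 0.40 on the log2 scale, and UGCG, which encodes glucosylceramide synthase, was at -0.18. Of 13 regulators of differentiation, all were tested, 4 higher and 4 lower. ZNF750 had a log2 fold change of 1.06 (SE 0.41, adjusted p = 0.0426 by edgeR's quasi-likelihood test). It was scarce, with 7 and 20 counts in the control libraries against 32 and 26 after knockdown. OVOL1 had a log2 fold change of 0.28, MAF of -0.65 and CEBPA of -0.22. KLF4, a barrier regulator, was at 6.54 ± 0.0537 CPM in siControl and 6.64 ± 0.453 CPM (SD, n = 2 each) in siALKBH5 and was not called.

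**Figure D5:**
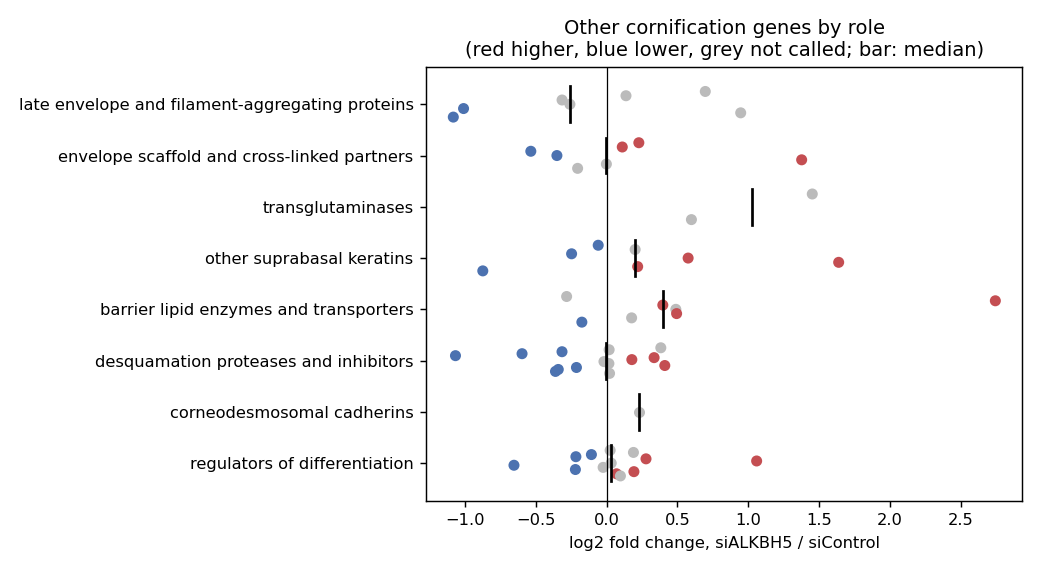
Log2 fold change of the 58 tested genes of the 8 cornification lists, 1 list per line, with red points called higher, blue points called lower, grey points not called and a black bar at the median of each list. Called genes lie on both sides of 0 in 5 of the lists, and in the late envelope list the 2 called genes, TCHH and CNFN, lie below 0.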

How the data were processed

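Poly-A RNA of 4 HaCaT libraries was sequenced by the authors, who deposited raw counts per gene and listed gene lengths. The submitters' processing notes name CASAVA, HISAT2 2.0.5, featureCounts 1.5.0-p3, DESeq2 1.20.0 and hg38. All 58735 genes matched GENCODE 29 on GRCh38. The deposited FPKM, scaled separately in each table, and the authors' columns of fold changes and p-values were not used. Every count column was mapped to a library.

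After filterByExpr and TMM, the quasi-likelihood test of edgeR 4.0.16 (R 4.3.3, glmQLFit and glmQLFTest) compared siALKBH5 with siControl without covariates, with Benjamini-Hochberg adjustment over 15075 genes and a threshold of 0.05. Steps were tested on simulated data. FPKM were recomputed from counts, library totals and listed lengths. A permutation of 2 against 2 libraries cannot give a two-sided p under 0.333, so adjusted p-values rest on the spread estimated over all genes. Intervals of counting error do not cover PCR duplicates. The genes, lists and named genes (the 10 genes, ALKBH5, overlapping neighbours, 3 genes of like pattern, and up to 4 called genes per list with a mean of at least 1 CPM, by size of change) were chosen with earlier results of these data known. The values of 1 gene that this rule names are not reported here. Alternatives were DESeq2 1.42.0, limma 3.58.1 on log2 FPKM, other scalings and filters, a replicate block, and leaving out 1 library at a time.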

Additional observations from a re-analysis of the deposited data

How the results depend on the processing

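Of 108 values of the 9 tested genes under 12 alternatives, 106 kept their direction and their side of the threshold, 2 passed it newly (SPRR1A and TGM1, each without 1 control library) and 0 were lost or reversed. The counts of 3 higher, 4 lower and 0 past the fold cutoff held under each alternative, except for leaving out a library, which gave 3 to 4 higher, 4 to 4 lower and 0 to 0 past the cutoff. DESeq2 gave 8 other cornification genes higher, and 1834 higher and 1247 lower genes in all against 2913 and 2610 by edgeR. limma gave 1848 higher genes on log2(FPKM + 1) and 1838 on log2(FPKM + 0.1). The cause was not tested, except that limma was run on fewer genes, 11823. Leaving out each library in turn gave 11 to 15 other cornification genes higher and 11 to 16 lower, 2366 to 2528 genes higher and 1961 to 2124 lower in all, and log2 fold changes of -0.90 to -0.79 for ALKBH5 and -0.59 to -0.39 for FLG. Where that left a group with 1 library, the lone library was assumed to vary like the other group. The labels do not say whether same-numbered libraries were prepared together. Their deviations had a correlation of 0.07 over 11649 genes, which cannot decide this, since a shared preparation need not affect most genes. With the replicate block, 3 genes were higher, 4 lower and 0 past the cutoff, as were 16 and 19 other cornification genes and 3091 and 2831 genes in all, and ALKBH5 was at -0.85. Depth limits CDSN and the late envelope genes.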
